A study of Mus musculus with 22 samples.

Results

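Expression of 9 iron handling genes was followed in mouse wound granulation tissue with and without collagenase-3 (MMP-13). The genes were the iron exporter Slc40a1 (ferroportin), the heme-degrading enzyme Hmox1, the biliverdin reductase Blvrb, and the ferritin chains Fth1 and Ftl1. The others were the ferroxidase Cp (ceruloplasmin), the transferrin receptor Tfrc and the metal transporters Slc11a1 and Slc11a2. The group was chosen by a measured value: Slc40a1 was lower in knockout tissue at 21 d, and the other members were added as genes of the same pathway. Every member value of the 21 d genotype comparison is therefore given below as a description, without a test, and so is any Slc40a1 comparison that uses 21 d arrays. The members were found as all probe sets that the platform annotation assigns to them, and they were 9 of the 19324 gene symbols on the array. They had 28 probe sets, of which 22 were assigned to a member alone and 3, all for Ftl1, were shared with other genes. The remaining 3 were array control probe sets for Tfrc, which were not tested, so that 25 member probe sets entered the tests.

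Granulation tissue was grown in viscose cellulose sponges implanted subcutaneously on the back of WT or Mmp13-/- (KO) mice aged 5 to 8 weeks, and RNA was taken from the sponge ends after 7, 14 or 21 d. The labels give a mixed C57BL/6 and 129 background for all mice, whereas the design text has Mmp13-/- mice backcrossed into C57BL6 and WT mice bred from the same heterozygotes. Each genotype had 3 arrays at 7 d, 4 at 14 d and 4 at 21 d, 22 in all, each from a different mouse according to the design text. The knockout was not limited to the wound or to any cell type. Mmp13 signal, on the log2 scale used throughout, was 10.26 to 12.02 on WT arrays and 7.62 to 8.63 on Mmp13-/- arrays, so the arrays matched their labels. The arrays were labelled in 2 hybridization series. Series 1 started from 2 µg of RNA and held all 7 d arrays and replicates 1 to 3 of 14 d. Series 2 started from 250 ng with another labelling kit and held all 21 d arrays and replicate 4 of each genotype at 14 d.

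Iron is freed in wound tissue when macrophages take up dead red cells and break down their heme. Heme oxygenase 1, encoded by Hmox1, opens the heme ring and releases iron and biliverdin. Biliverdin reductases act on forms of biliverdin, and Blvrb encodes one enzyme of that name. The iron is stored in ferritin, a shell of heavy (Fth1) and light (Ftl1) chains, or leaves the cell through ferroportin, the known cellular iron exporter, after which ceruloplasmin oxidizes it for binding to transferrin. Cells take up transferrin iron through the receptor Tfrc, Slc11a2 moves iron out of endosomes, and Slc11a1 moves divalent metals out of the phagosomes of macrophages. Hmox1, the ferritin genes and Slc40a1 are known to respond to heme and oxidants through NRF2 and BACH1, while messages of ferritin, Tfrc and Slc40a1 are also regulated by iron through iron regulatory proteins.

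Slc40a1 rose in WT tissue between 7 d and 14 d, and the corresponding change in Mmp13-/- tissue did not pass the test. On the brighter of its 2 probe sets, 1417061_at, the WT arrays read 6.38, 7.6 and 6.63 at 7 d and 8.41, 8.12, 9.28 and 8.99 at 14 d. Every WT array of 14 d thus lay above every WT array of 7 d. The Mmp13-/- arrays read 7.1, 7.78 and 7.06 at 7 d and 7.47, 7.98, 8.45 and 7.55 at 14 d, and these groups overlapped. At 21 d, the time point behind the choice of the gene, WT arrays read 9.76, 9.82, 9.71 and 9.76 and Mmp13-/- arrays 8.64, 8.35, 8.56 and 7.44.

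**Figure D1:**
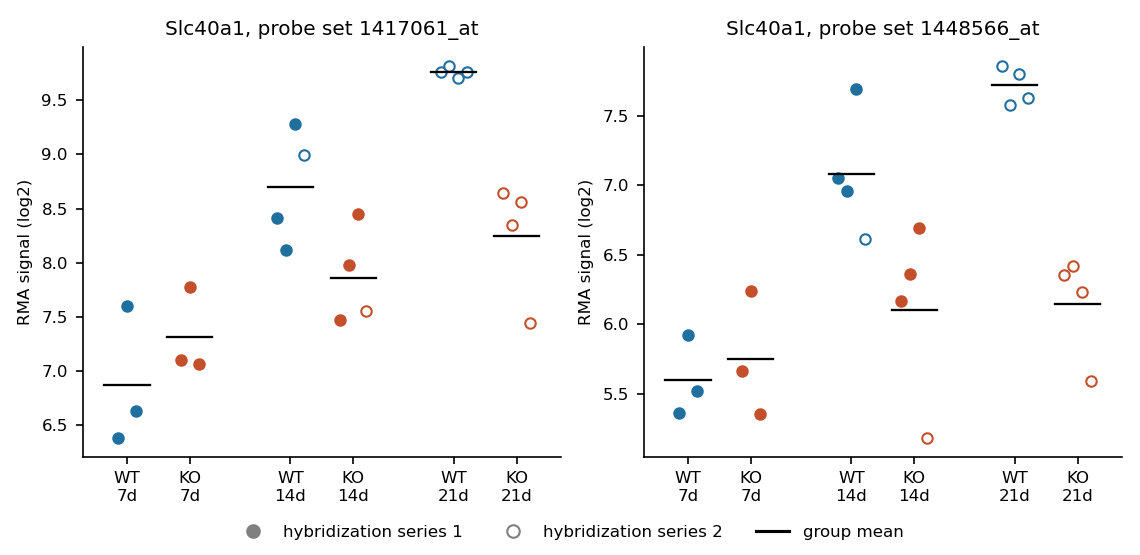
RMA signal (log2, y axis) of the 2 Slc40a1 probe sets on every array, by genotype and day (x axis); points are arrays, filled for hybridization series 1 and open for series 2, and bars are group means. On probe set 1417061_at the WT mean rose from 6.87 at 7 d to 8.70 at 14 d and was 9.76 at 21 d, against 7.31, 7.86 and 8.25 in Mmp13-/- (KO) tissue.

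The second Slc40a1 probe set, 1448566_at, was dimmer and gave the same order of days. WT arrays read 5.36, 5.92 and 5.52 at 7 d, 7.05, 6.96, 7.69 and 6.61 at 14 d, and 7.86, 7.58, 7.8 and 7.63 at 21 d. Mmp13-/- arrays read 5.66, 6.24 and 5.35 at 7 d, 6.17, 6.36, 6.69 and 5.18 at 14 d, and 6.35, 6.42, 6.23 and 5.59 at 21 d. Again all 14 d arrays of WT were above all 7 d arrays of WT, while the lowest Mmp13-/- value of the set was a 14 d array. That array was replicate 4, of series 2, and series 2 minus series 1 was -0.93 ± 0.25 on this probe set. The series 2 array was also the lowest WT array of 14 d. Without replicate 4, the Mmp13-/- arrays read 6.17 to 6.69 at 14 d, against 5.35 to 6.24 at 7 d.

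The linear model fitted across all probe sets with limma, which held the 6 groups and the hybridization series, gave a WT rise of 1.83 ± 0.34 (SE) log2 units, or 3.56-fold, on 1417061_at (adjusted p = 0.00658) and of 1.71 ± 0.24, or 3.27-fold, on 1448566_at (limma adjusted p = 0.000604). A probe set is called here when this p, adjusted by the Benjamini-Hochberg method over 45037 probe sets, is under 0.05. In Mmp13-/- tissue the fitted change was 0.55 ± 0.34 (limma adjusted p = 1.0) and 0.58 ± 0.24 (limma adjusted p = 0.562). An effect called in WT and not in Mmp13-/- tissue is not in itself a genotype difference. The test of that difference, the change in Mmp13-/- minus WT from 7 d to 14 d, gave -1.28 ± 0.47 and -1.13 ± 0.33 on the 2 probe sets, with unadjusted p = 0.0129 and 0.00267 in limma and adjusted p = 1 for both. The rise in WT was called under all 13 alternative settings for both probe sets, between 1.42 and 2.20 log2 units on 1417061_at and between 1.48 and 1.87 on 1448566_at. The array's control probe sets for Tfrc, whose 3' minus 5' signal can depend on RNA integrity and labelling, also separated these WT groups, at 1.72 to 1.76 log2 units at 7 d and 2.03 to 2.07 at 14 d. The 5' set was dim, however, averaging 2.69 and 2.75 in WT against a median probe set of 4.22, while the 3' set averaged 4.43 and 4.79. RNA integrity and the level of the Tfrc message therefore cannot be told apart in this measure. On Mmp13-/- arrays this measure overlapped, at 1.64 to 1.93 and 1.50 to 2.05, and its part in the Slc40a1 and Hmox1 changes was not tested.

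The genotypes did not differ by a called amount in Slc40a1 at 7 d or 14 d. At 7 d Mmp13-/- minus WT was 0.44 ± 0.35 on 1417061_at and 0.15 ± 0.25 on 1448566_at. At 14 d it was -0.84 ± 0.31 and -0.98 ± 0.21, with limma adjusted p = 0.999 and 0.458 (unadjusted p = 0.0130 and 0.000203). The 95% intervals at 14 d ran from -1.48 to -0.20 and from -1.43 to -0.53. Groups overlapped on both probe sets, and the exact two-sided permutation test over the 8 arrays of 14 d gave p = 0.0857 and 0.0571, where the smallest p that 4 against 4 arrays allow is 0.0286. Within the 4 pairs of arrays that share a replicate number, every difference was negative, at -0.94, -0.14, -0.83 and -1.44 on 1417061_at and -0.88, -0.60, -1 and -1.43 on 1448566_at. The exact two-sided sign-flip permutation test over these pairs gave p = 0.125 for both, the smallest that 4 pairs allow. Pairing by replicate number is an assumption, as the sample titles name no pairs. Weighting the arrays by their estimated quality made the second probe set a call at 14 d, with a difference of -0.84 and limma adjusted p = 0.0188. The same weights raised the calls among all probe sets in this comparison from 8 to 289.

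As a description of the values that chose the gene, Mmp13-/- minus WT at 21 d was -1.52 ± 0.31 on 1417061_at, 2.86-fold lower, and -1.57 ± 0.21 on 1448566_at, 2.97-fold lower, and no Mmp13-/- array reached the lowest WT array on either probe set. In the order of group means on 1417061_at, WT 21 d (9.76 ± 0.045, SD, n = 4) stood first, followed by WT 14 d (8.70 ± 0.53, n = 4), Mmp13-/- 21 d (8.25 ± 0.55, n = 4), Mmp13-/- 14 d (7.86 ± 0.45, n = 4), Mmp13-/- 7 d (7.31 ± 0.40, n = 3) and WT 7 d (6.87 ± 0.64, n = 3). Each group overlapped with its next neighbour in this order, except WT 21 d, whose lowest array (9.71) was above the highest WT array of 14 d (9.28). From 14 d to 21 d the fitted WT change was 1.07 ± 0.41 and 1.33 ± 0.28 on the 2 probe sets, and the Mmp13-/- change 0.40 ± 0.41 and 0.74 ± 0.28, also without a test. These values rest on the series term, which was estimated at -0.93 ± 0.25 for 1448566_at from the 14 d arrays alone and at -0.02 ± 0.35 for 1417061_at.

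Among all 25 member probe sets, 4 were called higher at 14 d than at 7 d in WT tissue, 16.0% of them, and none lower, where 1.70% of all probe sets were called in this comparison and 1.13% were called higher. The 4 were both Slc40a1 probe sets, the Hmox1 probe set and 1 of the 8 Cp probe sets. With the unadjusted p under 0.05 in limma, 16 of the 25 were higher and none lower, against 5.36% of all probe sets that were higher by that measure. The 16 were 2 of Slc40a1, 1 of Hmox1, 2 of Fth1, 3 of Ftl1, 3 of Tfrc and 5 of Cp. The median change of the 25 was 0.36 log2 units, that of all probe sets -0.01. In Mmp13-/- tissue 0 of 25 were called, against 0.628% of all probe sets, and 8 were higher at an unadjusted p under 0.05, against 3.57% of all. These 8 were 1 of Slc40a1, 3 of Ftl1, 2 of Tfrc, and those of Slc11a1 and Blvrb, and the median change was 0.15. Probe sets of a gene measure the same message, so these counts are not counts of independent genes. The shares of all probe sets also include dim ones. With only probe sets above the median tested, 5 of 22 member probe sets were called in WT. The calls among all probe sets were then 1089, against 767 in the main setting, although fewer were tested.

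**Figure D2:**
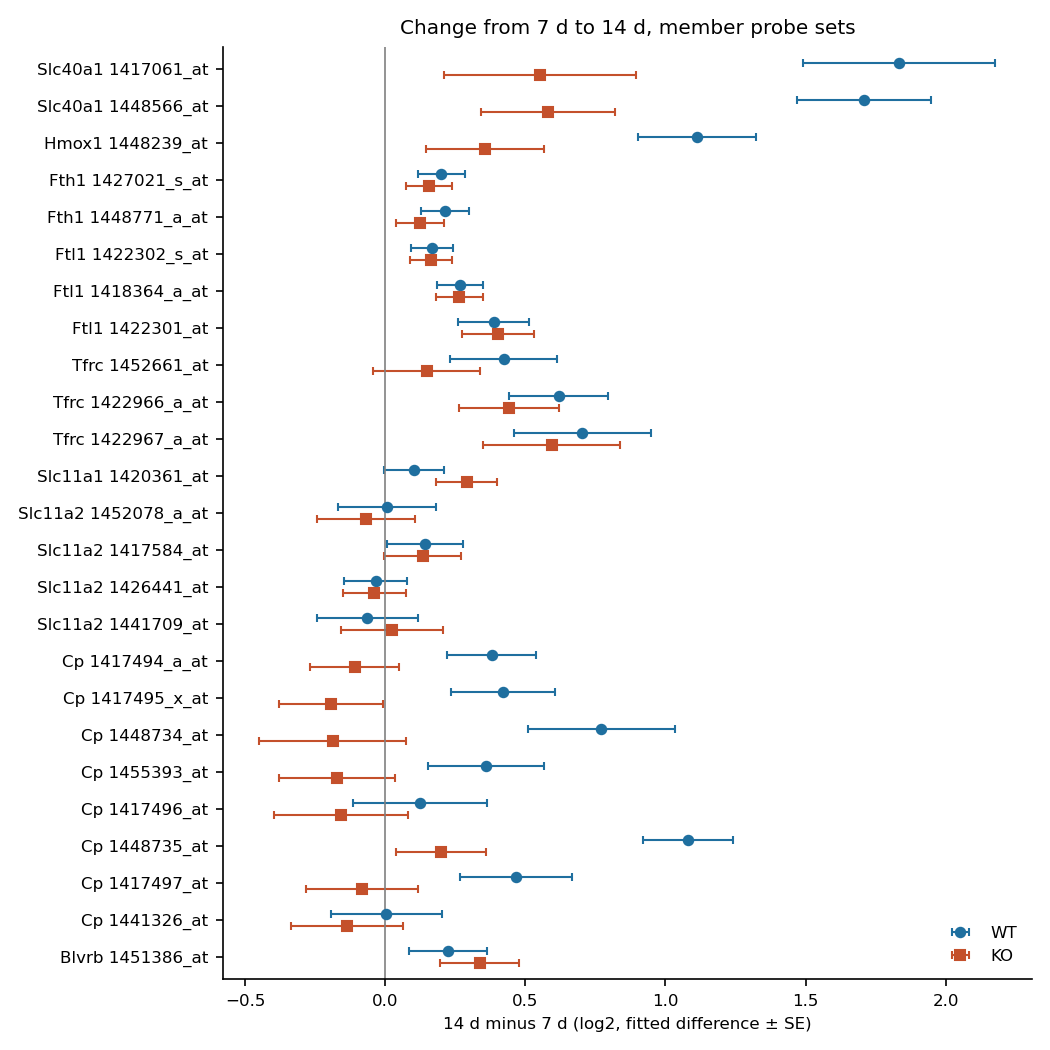
Fitted change from 7 d to 14 d (log2, x axis; bars are SE) of the 25 member probe sets (y axis) in WT (circles) and Mmp13-/- (KO, squares) tissue. Slc40a1 and Hmox1 lay farthest to the right in WT, at 1.83, 1.71 and 1.11, with 0.55, 0.58 and 0.36 in Mmp13-/- tissue, whereas the ferritin probe sets had nearly the same change in both.

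Hmox1, which carries out the rate-limiting step of heme breakdown, was the second member gene to be called in WT tissue. WT arrays read 10.09, 9.83 and 9.43 at 7 d, 10.84, 10.64, 10.89 and 10.99 at 14 d, and 10.97, 10.52, 10.68 and 11.12 at 21 d. Mmp13-/- arrays read 9.9, 10.67 and 9.84 at 7 d, 10.68, 10.51, 10.61 and 9.95 at 14 d, and 10.75, 10.52, 10.56 and 10.46 at 21 d. The WT groups of 7 d and 14 d did not overlap, while in Mmp13-/- tissue a 7 d array was nearly as high as the highest 14 d array. The WT rise was 1.11 ± 0.21, or 2.16-fold (limma adjusted p = 0.00730), and it missed the threshold without replicate 3 of WT 7 d, the lowest of its group (0.94, limma adjusted p = 0.0514). The Mmp13-/- change was 0.36 ± 0.21 (limma adjusted p = 0.986), and the difference between these changes was -0.76 ± 0.29 (limma unadjusted p = 0.0164, adjusted p = 1). At 14 d Mmp13-/- minus WT was -0.40 ± 0.19 (limma adjusted p = 0.999), with a 95% interval from -0.80 to -0.01, with 3 of the 4 Mmp13-/- arrays below the WT range. The lowest of them was the series 2 array, and without replicate 4 of either genotype the difference was -0.19.

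Blvrb, the biliverdin reductase of the set, did not pass the test in any comparison, and its level went with the hybridization series. WT arrays read 8.98, 8.57 and 8.28 at 7 d, 8.92, 8.87, 8.65 and 9.59 at 14 d and 9.76 to 9.92 at 21 d. Mmp13-/- arrays read 8.71, 9.02 and 8.58 at 7 d, 9.18, 9.21, 8.99 and 9.74 at 14 d and 9.64 to 9.80 at 21 d. In both genotypes the 14 d array of series 2 was the highest of its group, and series 2 minus series 1 was 0.70 ± 0.14 (limma adjusted p = 0.00258). After this term the change from 14 d to 21 d was 0.31 ± 0.17 in WT and -0.07 ± 0.17 in Mmp13-/- tissue, with limma adjusted p = 0.406 and 0.898. At 14 d Mmp13-/- minus WT was 0.27 ± 0.12 for Blvrb (limma unadjusted p = 0.0413, adjusted p = 0.999).

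**Figure D3:**
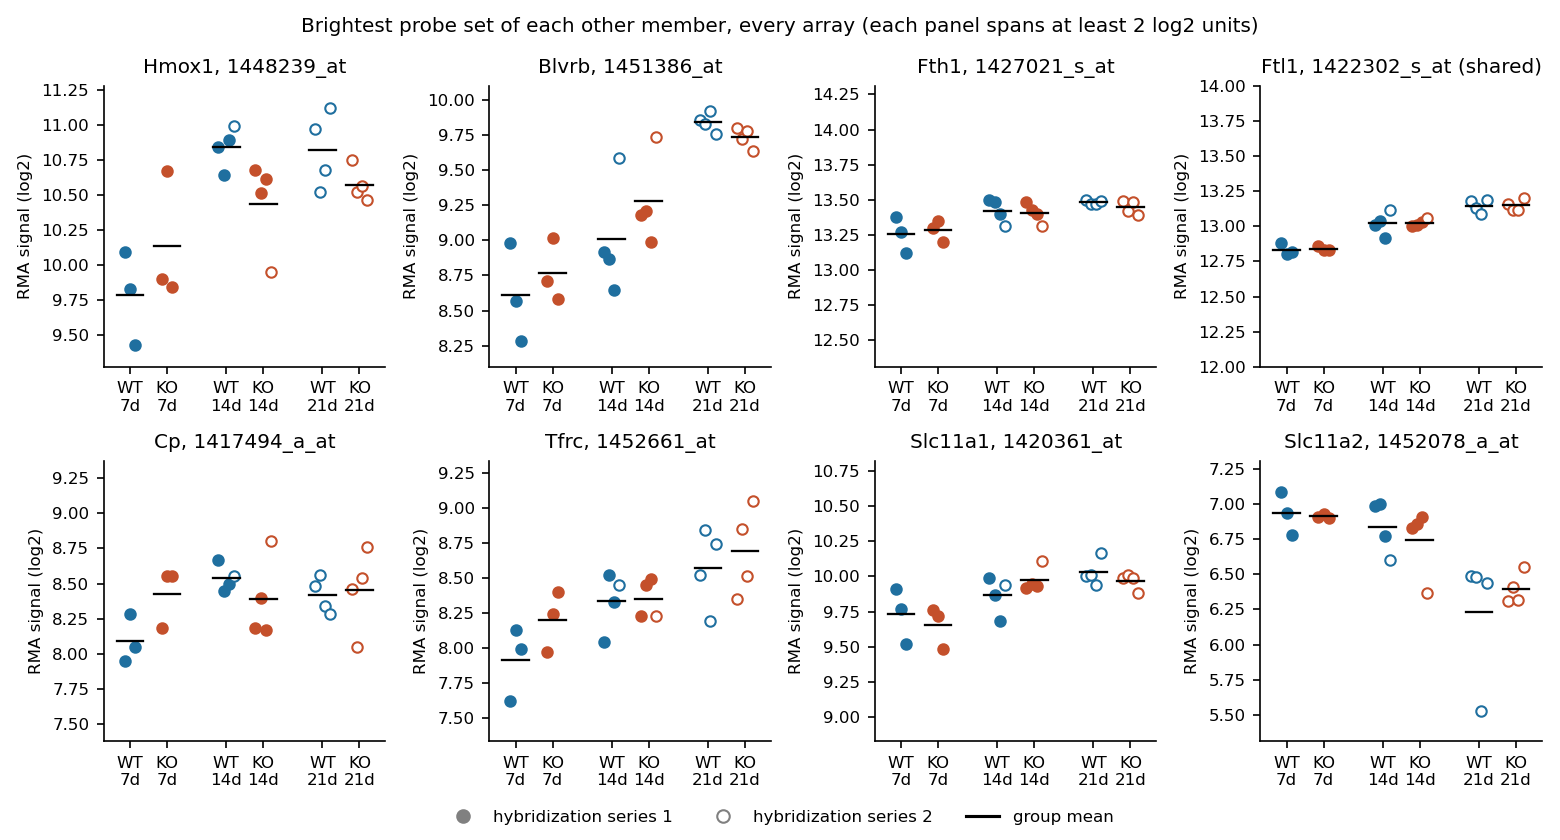
RMA signal (log2, y axes) of the brightest probe set of each other member on every array, by genotype and day (x axes); points are arrays, filled for series 1 and open for series 2, bars are group means, and the Ftl1 probe set is shared with other genes. Hmox1 was 9.43 to 10.09 in WT at 7 d and 10.64 to 10.99 at 14 d, and Blvrb reached 9.59 or more only on series 2 arrays.

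The ferritin messages were among the strongest signals of the arrays, whose highest value was 13.77. On its brighter probe set Fth1, the heavy chain with ferroxidase activity, read 13.12 to 13.38 in WT and 13.20 to 13.35 in Mmp13-/- tissue at 7 d, 13.31 to 13.50 and 13.31 to 13.48 at 14 d, and 13.47 to 13.50 and 13.39 to 13.49 at 21 d. For Ftl1, the light chain, no probe set was free of other genes. The brightest shared probe set read 12.80 to 12.88 and 12.83 to 12.86 at 7 d, 12.92 to 13.12 and 13 to 13.06 at 14 d, and 13.09 to 13.19 and 13.12 to 13.20 at 21 d, in WT and Mmp13-/- tissue. The genotypes thus covered almost the same range at each day.

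All 5 ferritin probe sets had positive changes from 7 d to 14 d in both genotypes, 0.17 to 0.39 log2 units in WT and 0.12 to 0.40 in Mmp13-/- tissue, and none was called. The smallest adjusted p belonged to 1418364_a_at, which Ftl1 shares with its pseudogene Ftl1-ps2, at 0.27 ± 0.08 in WT (limma adjusted p = 0.136) and 0.26 ± 0.08 in Mmp13-/- tissue (limma adjusted p = 0.243). Between genotypes, differences of the brightest ferritin probe sets had narrow intervals. The 95% interval for Fth1 ran from -0.15 to 0.20 at 7 d and from -0.17 to 0.14 at 14 d, and for Ftl1 from -0.16 to 0.17 and from -0.14 to 0.14.

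Cp, the ferroxidase that works with ferroportin, was the third member gene with a call in WT tissue, on 1448735_at, 1 of its 8 probe sets. WT arrays read 4.74, 5 and 4.54 at 7 d, 6.05, 5.7, 5.89 and 5.85 at 14 d, and 5.52 to 6.07 at 21 d. Mmp13-/- arrays read 5.29, 5.57 and 5.71 at 7 d, 5.46, 5.85, 5.74 and 5.97 at 14 d, and 5.56 to 6.02 at 21 d. The 3 WT arrays of 7 d were thus the lowest of all 22. The WT rise was 1.08 ± 0.16, or 2.11-fold (limma adjusted p = 0.00111), and was called under all 13 alternatives, while the Mmp13-/- change was 0.20 ± 0.16 (limma adjusted p = 1.0). At 7 d Mmp13-/- minus WT was 0.76 ± 0.17, with no overlap of the groups, but limma's adjusted p was 0.441 (unadjusted p = 0.000186), and 3 against 3 arrays cannot go below p = 0.1 in an exact permutation test. The change of the genotype difference from 7 d to 14 d was -0.88 ± 0.22 (limma unadjusted p = 0.000721, adjusted p = 1).

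At 7 d Mmp13-/- minus WT was positive for all 8, at 0.10 to 0.76 log2 units, and none was called. From 7 d to 14 d the fitted changes of all 8 were positive in WT (0.004 to 1.08). For 1417496_at and 1441326_at this held with the series term only, as the plain differences of the group means were -0.39 and -0.07. In Mmp13-/- tissue the other 7 probe sets had values of -0.20 to -0.08, opposite in sign to 1448735_at. The brightest, 1417494_a_at, read 7.95, 8.28 and 8.05 in WT and 8.18, 8.55 and 8.55 in Mmp13-/- tissue at 7 d, and 8.45 to 8.67 and 8.17 to 8.80 at 14 d, with a WT change of 0.38 ± 0.16 (limma adjusted p = 0.365). A further probe set, 1417496_at, read 6.89 to 7.53 on all series 1 arrays and 4.69 to 5.71 on all series 2 arrays, so that its level followed the labelling series. At 21 d Cp probe sets differed between the genotypes by -0.42 to 0.28, given here without a test.

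Tfrc, the receptor that brings transferrin iron into cells, overlapped between the genotypes at every day. Its brightest probe set read 7.62, 8.13 and 7.99 in WT and 7.97, 8.24 and 8.4 in Mmp13-/- tissue at 7 d, 8.04 to 8.52 and 8.23 to 8.49 at 14 d, and 8.19 to 8.84 and 8.35 to 9.05 at 21 d. The change from 7 d to 14 d was 0.42 ± 0.19 in WT and 0.15 ± 0.19 in Mmp13-/- tissue, neither of them called (limma adjusted p = 0.435 and 1.0). The dimmer probe sets 1422966_a_at and 1422967_a_at had larger WT changes of 0.62 ± 0.18 and 0.70 ± 0.24 (limma adjusted p = 0.0942 and 0.211), and were 0.66 ± 0.18 and 0.77 ± 0.25 lower in series 2 than in series 1. Mmp13-/- minus WT on the brightest probe set was 0.29 ± 0.20 at 7 d and 0.02 ± 0.17 at 14 d, with 95% intervals from -0.12 to 0.70 and from -0.34 to 0.37. The 3 control probe sets along the Tfrc message were dim throughout, and their 3' minus 5' signal was 1.64 to 2.07 log2 units in series 1 and 1.50 to 2.18 in series 2.

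Slc11a1, the metal transporter of macrophage phagosomes, was not called in any comparison. It read 9.52 to 9.91 in WT and 9.48 to 9.76 in Mmp13-/- tissue at 7 d, 9.68 to 9.99 and 9.92 to 10.11 at 14 d, and 9.94 to 10.17 and 9.88 to 10.01 at 21 d. All 4 Mmp13-/- arrays of 14 d were above the 3 of 7 d, with a change of 0.29 ± 0.11 that was not called (limma adjusted p = 0.422, unadjusted p = 0.0144), and the WT change was 0.10 ± 0.11. Slc11a2, the endosomal iron transporter, read 6.78 to 7.09 in WT and 6.90 to 6.93 in Mmp13-/- tissue at 7 d, and 6.60 to 7.00 and 6.37 to 6.91 at 14 d. Its lowest 14 d array was the series 2 array in both genotypes, and at 21 d, when all arrays were of series 2, it read 5.53 to 6.49 and 6.31 to 6.55. From 7 d to 14 d its 4 probe sets had differences of -0.06 to 0.14 in WT and -0.07 to 0.13 in Mmp13-/- tissue.

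No member was called between the genotypes at 7 d or 14 d. At 7 d, 0 of 25 probe sets were called, against 0.00888% of all probe sets, and 2 were higher at a limma unadjusted p under 0.05, both of Cp, against 1.27% of all. At 14 d, 0 of 25 were called, against 0.0178% of all, and 4 had a limma unadjusted p under 0.05, against 3.98% of all: both Slc40a1 probe sets and Hmox1 were lower and Blvrb was higher in Mmp13-/- tissue. For the comparison at 21 d, which served to pick Slc40a1, 1 of 25 was called, its probe set 1448566_at, against 0.0488% of all, and nothing is read from this count. Apart from Slc40a1, the fitted 21 d differences of the members lay between -0.42 and 0.28 log2 units, with Hmox1 at -0.25 ± 0.19, and all of these groups overlapped. For the change in the genotype difference from 7 d to 14 d, 0 of 25 were called, as were 0% of all probe sets. At a limma unadjusted p under 0.05, 7 of 25 were lower, namely 2 of Slc40a1, 1 of Hmox1 and 4 of Cp, against 1.37% of all probe sets, and none was higher.

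**Figure D4:**
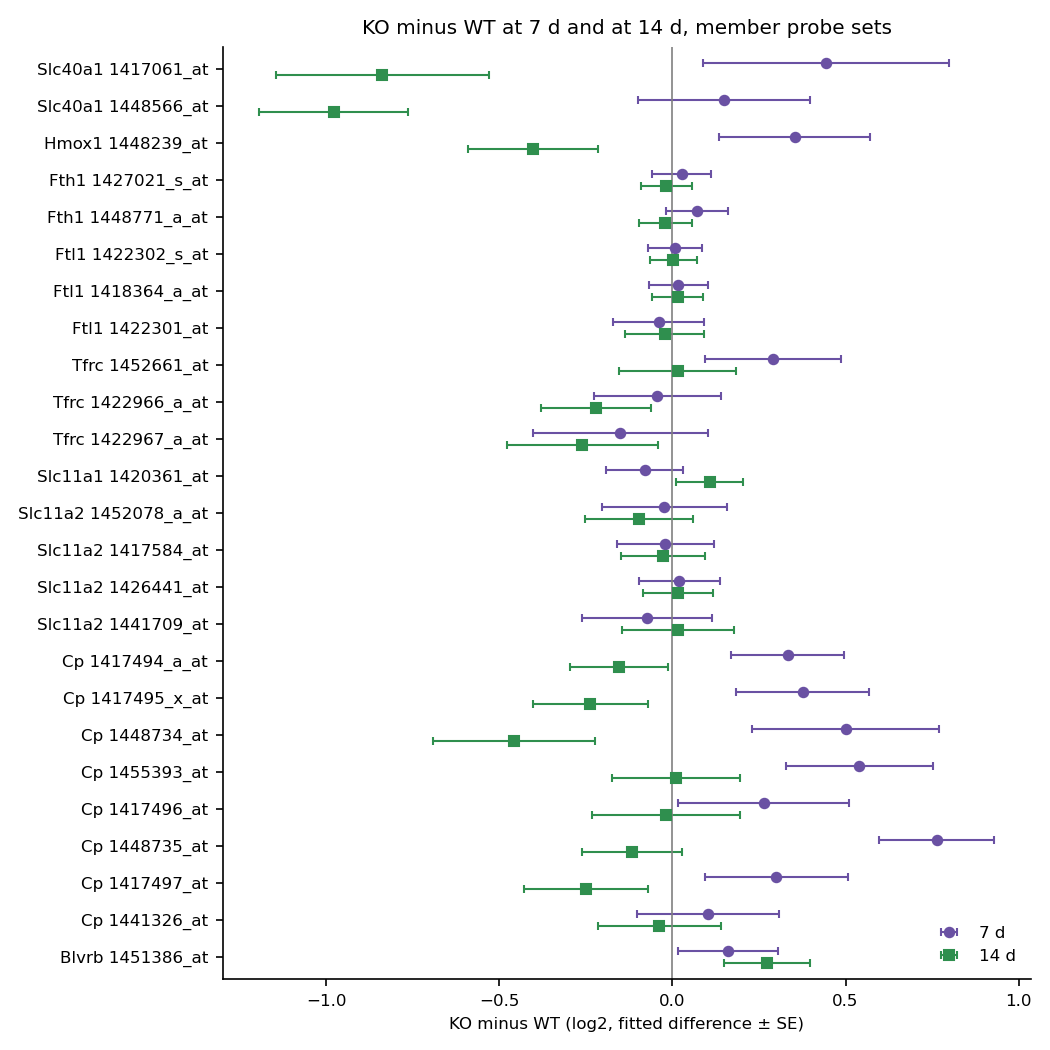
Fitted Mmp13-/- (KO) minus WT difference (log2, x axis; bars are SE) of the 25 member probe sets (y axis) at 7 d (circles) and 14 d (squares). All 8 Cp probe sets lay right of 0 at 7 d, by up to 0.76, and the Slc40a1 probe sets lay at -0.84 and -0.98 at 14 d, with no difference called.

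From 14 d to 21 d, 0 of the 23 probe sets of the other 8 members were called in WT tissue, against 0.420% of all probe sets, and 0 of 23 in Mmp13-/- tissue, against 0.0799% of all. At a limma unadjusted p under 0.05, 1 of the 23 was lower in each genotype and none was higher. The share of all probe sets by that measure is not given here, so nothing is read from this count. The 23 probe sets had differences of -0.81 to 0.32 log2 units in WT and -0.64 to 0.44 in Mmp13-/- tissue. The lowest of these values in both genotypes was that of Cp 1455393_at, at -0.81 ± 0.24 (limma adjusted p = 0.131) and -0.64 ± 0.24 (limma adjusted p = 0.252). For Hmox1 the values were 0.15 ± 0.25 and 0.30 ± 0.25. The series term behind these values rests on 1 series 2 array per genotype at 14 d, and it was called for 6 of the 25 member probe sets and for 13.3% of all probe sets.

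Further genes of iron and heme metabolism gave few calls. Of 13 measured regulators of iron balance, which include the iron regulatory proteins and hepcidin, none was called in any of the 7 comparisons outside the 21 d genotype contrast. At most 1.70% of all probe sets were called in any of these, so no call among 13 does not stand apart. The smallest unadjusted p at 7 d or 14 d between genotypes belonged to Hamp, the hormone that lowers ferroportin, which was dim (3.01 to 3.61) in all groups, and to Fbxl5, the iron-sensing ubiquitin ligase adaptor for iron regulatory protein 2. Mmp13-/- minus WT was -0.19 ± 0.11 for Hamp at 7 d and -0.24 ± 0.15 for Fbxl5 at 14 d.

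Of 13 genes of iron binding, uptake and reduction, 4 fell from 7 d to 14 d in Mmp13-/- tissue, against 0.628% of all probe sets called, and none was called in WT, against 1.70% of all. Of the 13, 1 was higher and 2 were lower in WT at a limma unadjusted p under 0.05. Of all probe sets, 5.36% were higher by that measure, and the share that was lower is not given here. The 2 were Steap1 (limma adjusted p = 0.0619 in WT) and Steap2, both among the 4. Lcn2, a neutrophil protein that binds iron-carrying siderophores, fell by 1.71 ± 0.31 log2 units (limma adjusted p = 0.0103), against a WT change of -0.47 ± 0.31. The metalloreductase genes Steap4, Steap1 and Steap2 changed by -1.14 ± 0.20, -1.21 ± 0.23 and -0.79 ± 0.17 in Mmp13-/- tissue (limma adjusted p = 0.00828, 0.0137 and 0.0334), against WT values of 0.14 ± 0.20, -0.86 ± 0.23 and -0.36 ± 0.17. The difference between the genotypes' changes was not called for any of them, with Steap4 at -1.28 ± 0.27 (limma unadjusted p = 0.000147, adjusted p = 0.830). The list of 7 measured neutrophil marker genes, which does not hold Lcn2, averaged 7.05 to 7.54 on Mmp13-/- arrays of 7 d and 6.62 to 7.02 at 14 d. Its part in the fall of Lcn2 was not tested.

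Among 11 genes of heme and hemoglobin uptake, transport and breakdown, Slc48a1 alone was called. Of all probe sets, 1.70% in WT and 0.628% in Mmp13-/- tissue were called from 7 d to 14 d, and 0.420% in WT from 14 d to 21 d. Slc48a1 encodes a heme transporter of the lysosome that passes heme from digested red cells to the cytosol. It averaged 8.28 ± 0.12 (SD, n = 3), 9.28 ± 0.22 (n = 4) and 10.06 ± 0.12 (n = 4) in WT and 8.59 ± 0.18, 9.44 ± 0.005 and 9.81 ± 0.08 in Mmp13-/- tissue at 7, 14 and 21 d. From 7 d to 14 d it rose by 0.95 ± 0.11 in WT (limma adjusted p = 0.000114) and by 0.81 ± 0.11 in Mmp13-/- tissue (limma adjusted p = 0.00120), and from 14 d to 21 d by 0.63 ± 0.13 in WT (limma adjusted p = 0.0441). Its rise to 14 d was thus called in both genotypes, unlike those of Slc40a1 and Hmox1.

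None of 8 genes of heme synthesis and none of 7 of mitochondrial iron was called. At most 1.70% of all probe sets were called in any comparison, so lists this short with no call do not stand apart. Alas1, the first enzyme of heme synthesis outside red cells, had a Mmp13-/- minus WT value of 0.65 ± 0.16 at 7 d and 0.47 ± 0.14 at 14 d (limma adjusted p = 0.750 and 0.854), and Alad, the second enzyme, of 0.51 ± 0.16 at 14 d (limma adjusted p = 0.942). For the iron-sulfur assembly gene Isca1 the genotype difference was 0.13 ± 0.09 at 7 d, and for Slc25a28, a mitochondrial iron carrier, -0.14 ± 0.13. Of 11 transcription factors of iron and heme genes, Epas1, the hypoxia-inducible factor 2 alpha that is abundant in endothelial cells, rose by 1.28 ± 0.26 in WT from 7 d to 14 d (limma adjusted p = 0.0121), against a change of -0.12 ± 0.26 in Mmp13-/- tissue. Of 7 other NRF2 target genes, Gclm, a subunit of the enzyme that starts glutathione synthesis, rose by 0.78 ± 0.17 in WT (limma adjusted p = 0.0215), with 0.57 ± 0.17 in Mmp13-/- tissue (limma adjusted p = 0.217). Epas1 and Gclm were each the only call of their list in WT from 7 d to 14 d, where 1.70% of all probe sets were called. The medians of these lists are small: between -0.06 and 0.14 in WT and between -0.19 and 0.11 in Mmp13-/- tissue for the change from 7 d to 14 d.

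The bulk tissue held several cell types, and fewer cells of a type cannot be told apart from less RNA per cell. The 15 macrophage marker genes, macrophages being the known main site of ferroportin in heme recycling, averaged 8.93 to 9.25 on WT and 8.87 to 9.29 on Mmp13-/- arrays at 7 d, 9.02 to 9.18 and 9.08 to 9.25 at 14 d, and 8.99 to 9.08 and 8.90 to 9.21 at 21 d. These ranges overlapped between genotypes at each day and between 7 d and 14 d. Of the 15 markers only Mertk, a receptor for dying cells, was called from 7 d to 14 d, against 1.70% of all probe sets in WT and 0.628% in Mmp13-/- tissue. Its changes were 0.57 ± 0.14 in WT and 0.68 ± 0.14 in Mmp13-/- tissue (limma adjusted p = 0.0379 and 0.0228). At a limma unadjusted p under 0.05, 5 of the 15 were higher and 1 lower in WT, and 4 higher and 1 lower in Mmp13-/- tissue. Of all probe sets, 5.36% and 3.57% were higher by that measure. The WT changes ran from -0.89 for Fcgr1 to 1.36 for Marco, so the mean of the list hides opposite changes of single markers. The 7 measured erythroid markers averaged 3.69 to 4.13 on all arrays, near the median probe set of 4.22.

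**Figure D5:**
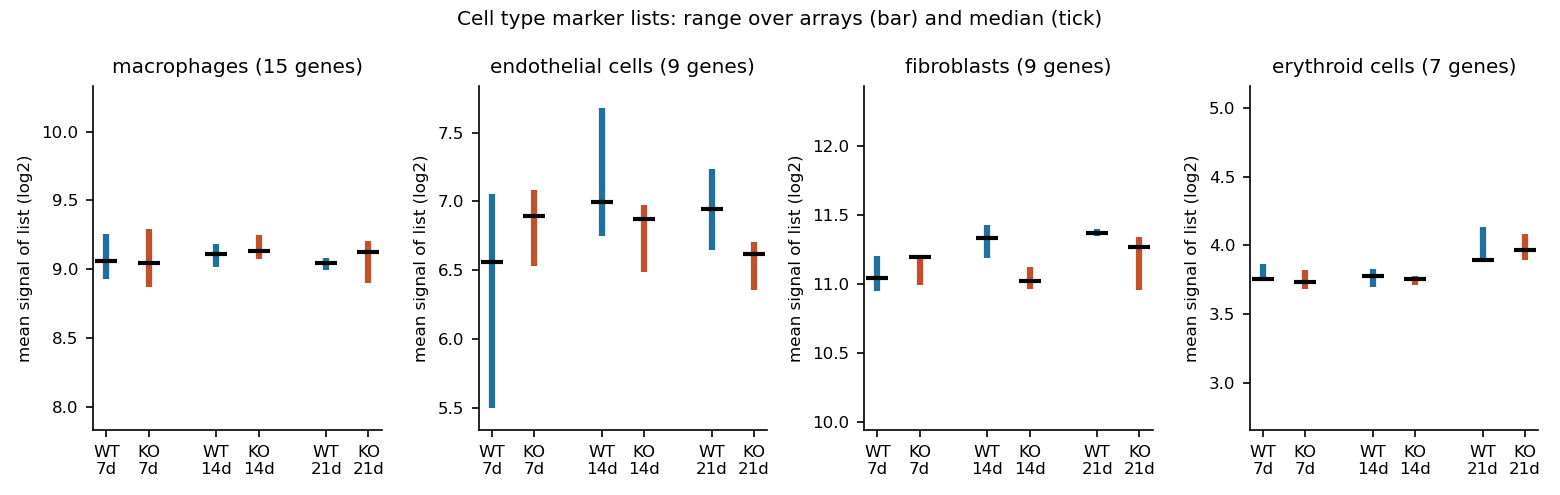
Mean RMA signal (log2, y axes) of 4 cell type marker lists by genotype and day (x axes); bars span the lowest to the highest array of a group and ticks are medians, with 3 arrays per group at 7 d and 4 later. The macrophage list stayed between 8.87 and 9.29 in every group, and the endothelial list covered 5.50 to 7.05 in WT at 7 d and 6.75 to 7.68 at 14 d.

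Among the marker lists, those of endothelial cells, keratinocytes and skeletal muscle had the largest positive median changes in WT tissue from 7 d to 14 d. Slc40a1 and Hmox1 rose in the same comparison. The fibroblast, macrophage and erythroid lists had small positive medians of 0.16, 0.08 and 0.04, and those of neutrophils and adipocytes were negative. The 9 endothelial genes averaged 5.50 to 7.05 on WT arrays at 7 d, 6.75 to 7.68 at 14 d and 6.64 to 7.24 at 21 d, and 6.53 to 7.09, 6.49 to 6.97 and 6.36 to 6.71 on Mmp13-/- arrays. The median change from 7 d to 14 d was 1.07 log2 units in WT and 0.16 in Mmp13-/- tissue, and that of the difference was -1.03. Eng, the endothelial coreceptor endoglin, was called in WT (0.49 ± 0.10, limma adjusted p = 0.0125). It was the only call among the 9, where 1.70% of all probe sets were called. At a limma unadjusted p under 0.05, 7 of the 9 were higher and 0 lower in WT, against 5.36% of all probe sets that were higher. For the change of the genotype difference, 6 of the 9 were lower and 0 higher by that measure, against 1.37% of all that were lower. Pecam1 and Cdh5 had differences of 1.24 ± 0.34 and 1.30 ± 0.36 (limma adjusted p = 0.0709 and 0.0807), whereas Kdr, a receptor of vascular endothelial growth factor, had -0.20 ± 0.26.

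The 9 fibroblast markers averaged 11.19 to 11.43 in WT and 10.96 to 11.12 in Mmp13-/- tissue at 14 d, ranges that did not overlap. At 7 d they averaged 10.95 to 11.20 and 10.99 to 11.21, and at 21 d 11.35 to 11.40 and 10.96 to 11.34. Pdgfra, a growth factor receptor of fibroblasts, rose by 0.75 ± 0.15 from 7 d to 14 d in WT (limma adjusted p = 0.00842), with -0.02 ± 0.15 in Mmp13-/- tissue. The matrix proteoglycan gene Dcn fell by 0.48 ± 0.09 in Mmp13-/- tissue (limma adjusted p = 0.0128), with -0.03 ± 0.09 in WT, and Lum, of the same family, was lower in Mmp13-/- than in WT tissue at 14 d, at -0.94 ± 0.15 (limma adjusted p = 0.0274). Pdgfra, Dcn and Lum were each the only call of the list in their comparison. There 1.70%, 0.628% and 0.0178% of all probe sets were called, in that order. At a limma unadjusted p under 0.05, 5 of the 9 were lower and 0 higher in Mmp13-/- tissue at 14 d. Of all probe sets, 3.98% had such a p in either direction. Going the other way, Thy1 had -0.21 ± 0.15 in WT from 7 d to 14 d, and Col1a1 0.08 ± 0.14 between genotypes at 14 d.

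The 7 keratinocyte markers averaged 3.64 to 3.81 on WT arrays at 7 d and 3.61 to 5.67 at 14 d, and 3.66 to 3.80 and 3.48 to 3.75 on Mmp13-/- arrays. Their median change was 0.93 in WT and 0.12 in Mmp13-/- tissue, and the median genotype difference at 14 d was -0.84. None of them was called. In WT 5 of 7 had a limma unadjusted p under 0.05, all higher, against 5.36% of all probe sets that were higher by that measure. The 6 adipocyte markers averaged 5.71 to 7.67 on WT arrays at 7 d and 4.47 to 6.06 at 14 d, with a median change of -1.26 in WT and -0.68 in Mmp13-/- tissue. The 8 skeletal muscle markers varied widely within groups, from 5.2 to 9.96 in WT at 7 d and from 8.19 to 9.43 at 14 d, with a median change of 0.83 in WT and 0.58 in Mmp13-/- tissue, and no adipocyte or muscle marker was called. The part of these cell types in the Slc40a1 and Hmox1 values was not tested.

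The genes whose signal most resembled that of Slc40a1 1417061_at over the 22 arrays, out of 11788 genes with a probe set above the median, were Snrk (Pearson r = 0.914), Ccdc80 (0.905), Fat4 (0.903), Dnmbp (0.901), Ptger3 (0.898), Cpz (0.894), Epha3 (0.894) and Eng (0.892). After each group's mean was removed, r was 0.799 for Snrk, 0.716 for Ccdc80 and 0.325 for Eng. Of the other members, Hmox1 came closest, with r = 0.774 and rank 261, and 0.399 within groups. Fth1 followed with 0.638, and Slc11a2 had -0.579, but within groups these were -0.007 and -0.128. These correlations describe arrays that share groups and hybridization series.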

How the data were processed

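RNA from granulation tissue of 22 mice was hybridized to Affymetrix mouse genome-wide 3' expression arrays. Values were deposited by the authors as log2 signals after RMA, which corrects background, quantile-normalizes the arrays and summarizes the probes of a set, with a median of 4.16 to 4.27 per array. Such values carry no read depth, and the number of arrays limits their precision. Samples were grouped by genotype and day from the labels. Of 45101 probe sets, 64 controls were left out and 45037 were tested. The platform annotation named a single gene for 34945 of them, several for 932 and none for 9160.

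Differences were fitted with limma 3.58.1 in R 4.3.3, with 6 group means and the hybridization series as a covariate (15 residual and 4.57 prior degrees of freedom), with Benjamini-Hochberg adjusted p-values across every probe set tested. The procedure was checked on simulated data. A gene was represented by its brightest probe set assigned to it alone. From each list of further genes the text names up to 4 called genes or, with none called, the 2 with the smallest unadjusted p between genotypes at 7 d or 14 d, and the 8 genes most like Slc40a1. Of 152 list entries, 138 were measured by a probe set of their own. The members and lists were chosen with earlier results of these data known. Alternatives were no series term, arrays centred on their median, bright probe sets only, array weights, a replicate block, the arrays of a single day or series, and each array left out in turn.

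Replicate numbers were shared across genotypes. Deviations of same-numbered arrays correlated by -0.16 to 0.50 at 7 d, 0.12 to 0.61 at 14 d and -0.13 to 0.01 at 21 d. At 14 d the values were 0.26, 0.24 and 0.12 for replicates 1 to 3. The 0.61 belonged to replicate 4, the series 2 array of both genotypes, where pairing and shared series cannot be told apart. The sample titles give replicate numbers and name no pairs. Pairing the 14 d arrays by number was therefore an assumption, and the arrays of the other days were not paired. The block served as an alternative.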

Additional observations from a re-analysis of the deposited data

Results flagged for a closer look

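Arrays that stood apart from the others of their group were sought by Dixon's criterion for 4 arrays in 100 groups of 14 d and 21 d (25 member probe sets), and 8 were found, where chance gives about 1 in 20 groups. In WT tissue of 21 d, replicate 3 was low for Fth1 1448771_a_at (12.99, others 13.23 to 13.24), Ftl1 1422301_at (9.53, others 9.88 to 9.95) and Slc11a2 1452078_a_at (5.53, others 6.44 to 6.49). In Mmp13-/- tissue of 14 d, replicate 4, the series 2 array of its group, was high for Slc11a1 (10.11, others 9.92 to 9.95) and Cp 1455393_at (7.59, others 6.71 to 6.82), and low for Slc11a2 1452078_a_at (6.37, others 6.83 to 6.91) and Cp 1417496_at (5.36, others 6.89 to 7.20). In Mmp13-/- tissue of 21 d, replicate 4 was low for Slc11a1 (9.88, others 9.99 to 10.01). WT 21 d replicate 3 also had the lowest estimated array weight, 0.207, of the 22 arrays.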

How the results depend on the processing

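The number of member probe sets called from 7 d to 14 d in WT (4) was 11 with array weights and 3 to 5 with an array left out. In Mmp13-/- tissue (0) the number was 4 with array weights. For the genotype difference at 14 d (0) the number was 1 with array weights. Array weights also raised the calls among all probe sets in these comparisons, from 767 to 3019, from 283 to 2304 and from 8 to 289, in that order. At 21 d (1, a description) the member count was 0 with array weights and 0 without the series term. From 14 d to 21 d in WT (1, Slc40a1 1448566_at, a description) the member count was 6 without the series term. It was 0 with array weights, centred arrays, the replicate block or series 2 alone, and 0 to 1 with an array left out. In Mmp13-/- tissue (0) the member count was 1 without the series term. Without this term the calls among all probe sets rose from 189 to 4657 in WT and from 36 to 2523 in Mmp13-/- tissue. Cp 1417496_at reversed from 14 d to 21 d in WT without the series term, at -1.47 against 0.07. The causes were not tested. The replicate block changed no other count of calls, including at 14 d. Of 2448 single member values under alternatives, 166 changed sign, none of them a call in the main setting. The number of arrays, 3 or 4 per group, limits what could be detected.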
